A study of Mus musculus with 40 samples.

Results

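Insulin-like growth factor 1 (IGF1), its receptor and the IGF binding proteins (IGFBPs) were followed through the repair of a resected rib in 8 genes picked by name: Igf1, Igf1r, Igfbp2, Igfbp3, Igfbp4, Igfbp5, Igfbp6 and Igfbp7. They are 8 of the 21204 genes in the table of low-count-filtered reads. Bulk RNAseq was done on wild-type mice, female and C57BL/6 by the study's methods, that were either skeletally immature (7 weeks old) or skeletally mature (over 10 months old). The rib region was sampled at baseline (BL) and at 0dpr, 2dpr, 5dpr and 14dpr, where dpr counts days after resection. BL is taken here as uninjured tissue, since the study uses baseline for the time before resection, but the tissue label of the BL samples places collection after resection, as in every other group. The tissue was ground whole and holds bone, marrow and intercostal muscle, so that fewer cells of a type and less RNA per cell cannot be told apart. Each of the 10 groups had 4 libraries except mature 5dpr with 3, and replicates are separate samples whose origin in separate mice the labels do not state. If they are not separate mice, the p-values measure only the spread between samples.

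IGF1 is a secreted growth factor made by the liver under growth hormone and, locally, by cells of bone, muscle and wound tissue. It acts through the receptor tyrosine kinase encoded by Igf1r, which signals through insulin receptor substrates to the PI3K and AKT kinases. IGFBPs hold IGF1 and IGF2 in circulation and in the matrix, and proteases cut them to set the ligand free. In bone, IGF1 is a growth signal for growth plate cartilage and for osteoblasts.

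In GRCm38 with the GENCODE M21 annotation, all 8 are protein-coding genes and the counts cover their exons. Igf1 (ENSMUSG00000020053) lies on the + strand at chr10:87858265-87937042 and Igf1r (ENSMUSG00000005533) on the + strand at chr7:67952827-68233668. Igfbp2 (ENSMUSG00000039323, + strand, chr1:72824503-72852474) and Igfbp5 (ENSMUSG00000026185, - strand, chr1:72857932-72874884) are neighbours whose 3′ ends face each other. Igfbp3 (ENSMUSG00000020427, - strand, chr11:7206086-7213923) and Igfbp4 (ENSMUSG00000017493, + strand, chr11:99041244-99054392) share a chromosome at a distance. Igfbp6 (ENSMUSG00000023046) lies on the + strand at chr15:102144362-102149511. Igfbp7 (ENSMUSG00000036256) lies on the - strand at chr5:77349240-77408041 and shares 85 exonic bases with the antisense gene Polr2b, and whether counting used the strand is not stated.

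The 39 libraries held 6075274 to 21546794 counted reads, with a median of 9092095. By the spread of its genes around the mean of its group (the SD of the log2 deviation), mature 2dpr replicate 3 stood apart at 1.25, immature 0dpr replicate 1 had 0.767, and the other 37 libraries had 0.268 to 0.67. Immature 0dpr replicate 1 also carried liver transcripts. All 10 genes of a hepatocyte list, chosen after their values were seen, were higher there than in any other library. Alb, which encodes serum albumin, had 4704 CPM (read counts scaled to library size) in this library, a median of 2.35 and a highest value of 264 in the other 38. Igfbp1, an IGF binding protein made by liver, had 130 CPM in it and at most 1.73 elsewhere. Liver is a source of IGF1 and IGFBP2 as well, and the part of these transcripts in the values below was not tested. Mature 0dpr replicates 1 and 2 carried liver transcripts at a lower level, with 156 and 264 CPM of Alb and a mean over the 10 genes of 4.01 and 4.67 log2 CPM, against 9.18 in immature 0dpr replicate 1 and at most 1.83 in the remaining 36 libraries. Values with libraries left out are given where they change a call or for the main changes, in 2 alternatives added after the data were seen. One leaves out the 2 libraries that stood apart, and the other leaves out mature 0dpr replicates 1 and 2 as well, which leaves 3 immature and 2 mature libraries at 0dpr. Levels are CPM after trimmed mean of M-values (TMM) scaling, and a gene was called at an adjusted p under 0.05 in edgeR's quasi-likelihood test with Benjamini-Hochberg adjustment over all 21204 genes.

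Igf1, the ligand, was the one member called between ages, at 0dpr, where it was higher in immature mice. In immature mice at 0dpr, the 4 libraries had 294, 123, 198 and 114 CPM in the order of replicates 1 to 4. In mature mice at 0dpr they had 67.5, 81.6, 54.4 and 66.5 CPM. Every immature library lay above every mature library, whether or not the library with the most liver transcripts was counted. The group means were 182 ± 83.7 in immature and 67.5 ± 11.1 in mature mice (CPM ± SD, n = 4 each). Immature exceeded mature mice by a log2 fold change of 1.43 ± 0.20 (SE), or 2.70-fold, with an adjusted p of 7.51e-05 in edgeR's quasi-likelihood test.

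This was 1 of 8 members called between ages at 0dpr by edgeR, where 0.726% of all genes were called, and 1 of 8 by DESeq2, which called 1.65%. An unadjusted p under 0.05 was given to 4 members and to 10.7% of genes, and 1 member and 3.73% of genes had libraries that did not overlap between ages. Without immature 0dpr replicate 1 and mature 2dpr replicate 3, the immature mean at 0dpr was 145 ± 46.2 CPM (SD, n = 3), the log2 fold change was 1.11 ± 0.17 (SE) and the adjusted p was 0.000772, with 0.552% of genes called. With mature 0dpr replicates 1 and 2 left out too, the log2 fold change was 1.26 ± 0.21 and the adjusted p was 0.00431, with 0.132% of genes called. The call held in all 8 fits that left out 1 of the 8 libraries at 0dpr (log2 fold change 1.11 to 1.61, adjusted p at most 0.000941). A fit to these 8 libraries alone, with its own estimate of the spread, gave an adjusted p of 0.229. That fit called 0 of all genes, against 154 in the main fit. At the same stage, all 8 of 8 fibroblast and stroma markers were detected and their mean level was 9.23 to 9.54 log2 CPM in immature libraries and 8.39 to 8.61 in mature ones, without overlap. The same markers did not overlap between ages at BL (9.24 to 9.51 against 8.12 to 8.81) or at 2dpr (9.01 to 9.22 against 8.27 to 8.60), and their part in the Igf1 differences was not tested.

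**Figure D1:**
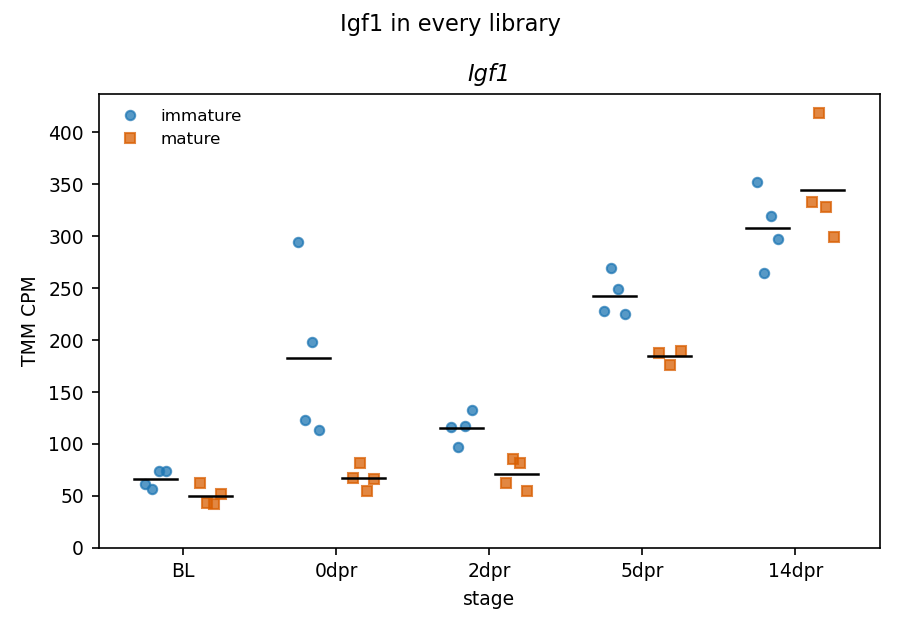
Igf1 in TMM CPM (vertical axis, from 0) in each of 39 libraries by stage (horizontal axis), with immature mice as circles, mature mice as squares and group means as bars. Immature libraries lie above all mature ones at 0dpr, 2dpr and 5dpr, the highest immature point at 0dpr (294 CPM) is the library with the most liver transcripts, and the ages overlap at BL and 14dpr.

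At 2dpr, Igf1 stood at 116, 96.7, 117 and 133 CPM in immature libraries. It stood at 62.5, 85.4, 81.8 and 54.6 CPM in mature libraries, so the ages again did not overlap. The log2 fold change of 0.70 ± 0.20 (SE) missed the threshold, with an adjusted p of 0.0836. Among the 8 members 0 were called between ages at 2dpr by edgeR, against 0.627% of all genes. DESeq2 called 2 members and 2.02% of genes, and 4 members and 13.3% of genes had an unadjusted p under 0.05. Igf1 was the 1 member without overlap, against 4.98% of genes. Igf1 was called at 2dpr without the 2 libraries that stood apart (log2 fold change 0.78 ± 0.18, adjusted p = 0.0256) and by DESeq2 (adjusted p = 0.0456), and in 1 of 8 fits that left out 1 library at 2dpr (without mature replicate 2, adjusted p = 0.0494), with an adjusted p of up to 0.256 in the others.

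Mean Igf1 in uninjured ribs stood at 66.6 ± 8.88 in immature and 50.3 ± 9.39 in mature mice (CPM ± SD, n = 4 each), with overlapping libraries (log2 fold change 0.40 ± 0.20, adjusted p = 0.425). At 5dpr it stood at 243 ± 20.8 in immature (n = 4) and 184 ± 7.33 in mature mice (n = 3), without overlap (log2 fold change 0.40 ± 0.21, adjusted p = 1). At 14dpr it stood at 308 ± 37 in immature and 345 ± 51.4 in mature mice (CPM ± SD, n = 4 each), with overlap (-0.16 ± 0.19, adjusted p = 1). Of the 8 members, edgeR called 0 between ages at BL, 5dpr or 14dpr, against 0.585%, 0% and 0.00943% of all genes. DESeq2 called 0 members at these 3 stages and 1.58%, 0.156% and 0.151% of genes. An unadjusted p under 0.05 was given to 2, 0 and 0 members and to 11.7%, 5.1% and 4.57% of genes. The members whose libraries did not overlap numbered 0, 1 and 1, against 9.05%, 10.2% and 5.49% of genes.

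Across stages, Igf1 rose in both ages. In immature mice it rose from BL to 0dpr by a log2 fold change of 1.45 ± 0.20 (adjusted p = 3.69e-05), and by 1.12 ± 0.17 (adjusted p = 0.000203) without the 2 libraries that stood apart. A fit to the 8 libraries of this step alone gave an adjusted p of 0.0682, with 48 genes called against 2257 in the main fit. In mature mice the same step gave 0.42 ± 0.20 (adjusted p = 0.125). The difference between these 2 changes was 1.03 ± 0.28 with an unadjusted p of 0.00079 and an adjusted p of 0.425, which did not pass the threshold. From 2dpr to 5dpr Igf1 rose in both, by 1.07 ± 0.20 in immature (adjusted p = 0.000412) and 1.38 ± 0.21 in mature animals (adjusted p = 1.66e-05, and 1.45 ± 0.19 with 1.25e-06 without the 2 libraries that stood apart). From 5dpr to 14dpr it rose in mature mice by 0.90 ± 0.21 (adjusted p = 0.0103, and 0.0636 without mature 5dpr replicate 3), and the immature step was 0.34 ± 0.20 (adjusted p = 0.47).

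The fall of Igf1 from 0dpr to 2dpr in immature mice (-0.66 ± 0.20, adjusted p = 0.00648) rested on the library with the most liver transcripts. Without that library and mature 2dpr replicate 3 it was -0.33 ± 0.17 with an adjusted p of 0.119. By 14dpr Igf1 was 4.63-fold above BL in immature mice (log2 fold change 2.21 ± 0.20, adjusted p = 2.06e-10) and 6.85-fold above in mature mice (2.78 ± 0.21, adjusted p = 1.37e-12). All 4 libraries at 14dpr lay above all 4 at BL in each age. Ordered by mean, Igf1 ran from mature BL, the lowest, to mature 14dpr, the highest, a range of 6.85-fold. Neighbours in that order overlapped except immature 5dpr above mature 5dpr and immature 2dpr above mature 2dpr.

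**Figure D2:**
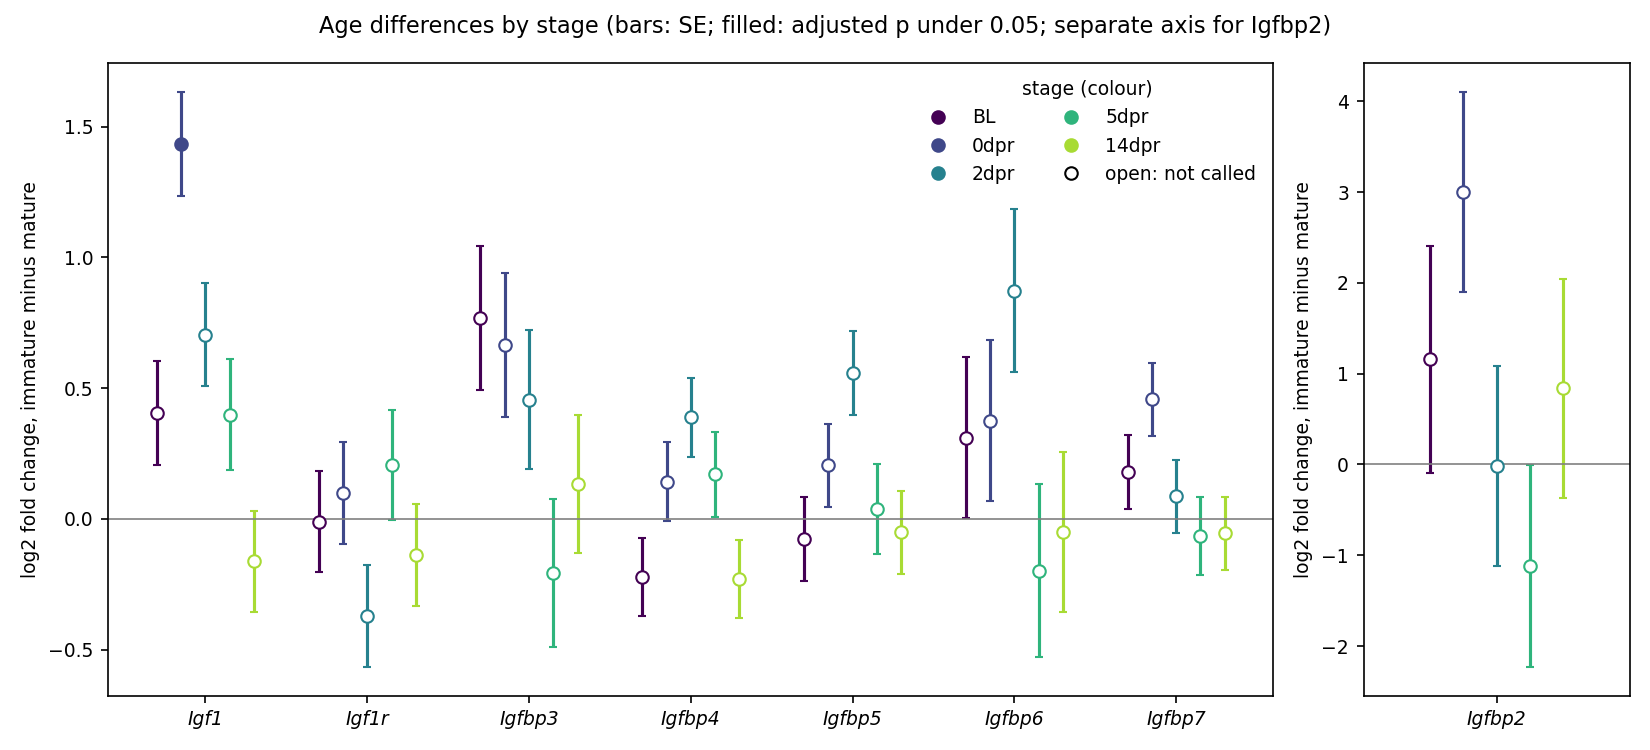
Log2 fold change of immature over mature mice (vertical axis) for each member (horizontal axis) at 5 stages (colours), with SE bars, filled points for an adjusted p under 0.05 and a separate axis for Igfbp2. The only filled point is Igf1 at 0dpr (1.43), and the wide bars of Igfbp2 go with its 1 to 165 reads per library.

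Igf1r, the receptor, was lower at 14dpr than at BL in both ages. In uninjured ribs it had 113, 102, 82.6 and 85.6 CPM in immature libraries and 105, 110.0, 89.4 and 82.2 CPM in mature ones. At 14dpr it had 48.2, 43.6, 60.5 and 52.6 CPM in immature and 61.5, 64.7, 53.8 and 45.7 CPM in mature libraries. BL and 14dpr did not overlap in either age, while the ages overlapped at both stages. The log2 fold change from BL to 14dpr was -0.90 ± 0.20 in immature (adjusted p = 0.000431) and -0.78 ± 0.20 in mature animals (adjusted p = 0.00192). With the mean level of skeletal muscle markers as a covariate the immature change was -0.75 and was not called (adjusted p = 0.175). This covariate took the calls over all genes for that change from 6667 to 1813.

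From BL to 0dpr Igf1r fell by 0.70 ± 0.20 on the log2 scale in mature mice (adjusted p = 0.00907). In immature mice the step was -0.59 ± 0.20 with an adjusted p of 0.0477, and the call was lost in 5 of 8 fits that left out 1 library (each of immature BL replicates 2, 3 and 6 and immature 0dpr replicates 3 and 4, adjusted p up to 0.237) and in all 7 other settings. Without the 2 libraries that stood apart it was -0.69 ± 0.21 (adjusted p = 0.0321). Over this step the mean of 20 of 20 skeletal muscle markers went from 11.16 to 11.55 log2 CPM at BL to 11.38 to 12.38 at 0dpr in immature mice, and from 10.32 to 11.33 to 11.61 to 12.56 in mature mice. With this score as a covariate the steps of Igf1r were -0.63 (adjusted p = 0.0855) and -0.79 (adjusted p = 0.147). Calls over all genes went from 2257 to 811 in immature and from 4775 to 132 in mature mice with the covariate.

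The binding proteins differed widely in level. To compare genes, CPM was divided by the length of their merged exons in kilobases (CPM per kb). At BL in immature mice, Igfbp6 stood at 108 CPM per kb, Igfbp5 at 93.8, Igfbp7 at 65.5, Igfbp4 at 36.3, Igfbp3 at 10.0 and Igfbp2 at 0.343. Igf1 itself stood at 6.72 and Igf1r at 5.71 on this scale. At 14dpr in immature mice the order had changed, with Igfbp7 at 246 CPM per kb, Igfbp6 at 134, Igfbp4 at 124, Igfbp5 at 59.6 and Igfbp3 at 21.8.

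As shares of the summed IGFBP level per kb, Igfbp5 made up 30.2% in immature and 34.6% in mature ribs at BL and 10.2% and 10.1% at 14dpr. Igfbp7 made up 21.2% and 20.3% at BL and 51.3% and 60% at 2dpr, and it held the largest share from 2dpr on. Igfbp4 went from 11.7% and 15.1% at BL to 21.2% and 23.3% at 14dpr. Dividing by the longest annotated transcript instead moved no group mean by enough to change which member was largest.

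**Figure D3:**
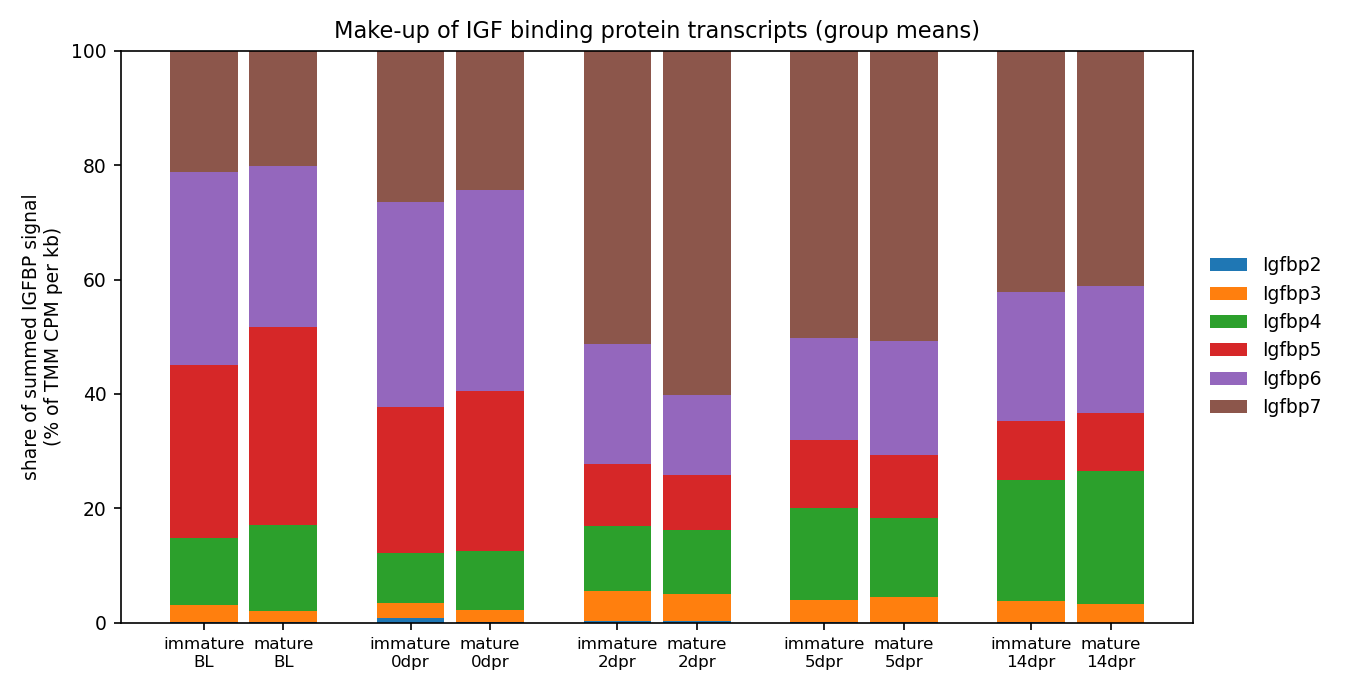
Share of each IGF binding protein gene in the summed IGFBP level (vertical axis, percent of TMM CPM per kb, group means) for each age and stage (horizontal axis). Igfbp5 and Igfbp6 take up most of the bars at BL and 0dpr, and Igfbp7 is the largest block from 2dpr on, with 51.3% in immature and 60% in mature mice at 2dpr.

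The summed IGFBP level per kb stood at 47.9 ± 14.6 times that of Igf1 in immature (SD, n = 4) and 58.2 ± 16.1 times in mature uninjured ribs (SD, n = 4). At 14dpr the ratio was 18.9 ± 1.12 (SD, n = 4) and 18.1 ± 3.29 (SD, n = 4). At 0dpr it was 25.1 ± 10.3 in immature mice (SD, n = 4), 28.8 ± 8.84 without replicate 1 (SD, n = 3), and 47.8 ± 10.8 in mature mice (SD, n = 4). The immature libraries at 0dpr reached 38.5 and the mature ones went down to 34.6, so the ages overlapped. At 2dpr the ratio was 24.6 ± 4.65 in immature and 32.9 ± 10.4 in mature mice (SD, n = 4 each), with overlap. At 5dpr the ratio was 17 ± 2.39 in immature (SD, n = 4) and 23.2 ± 2.89 in mature mice (SD, n = 3). The libraries at 5dpr ran from 14.6 to 19.4 in immature and 19.9 to 25.4 in mature mice, without overlap. No difference in the ratio was tested. In both ages, the ratio at 14dpr lay below that of every library at BL. These ratios depend on the transcript lengths used and describe transcripts, not protein. They weigh every IGFBP alike, also Igfbp7, which binds IGFs weakly and held the largest share from 2dpr on. Igf2, the other ligand, is left out of them.

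Igfbp5, an IGFBP abundant in bone and muscle that binds the matrix, fell sharply after resection. At 0dpr it had 691, 535, 695 and 544 CPM in immature and 610.2, 461, 560 and 507 CPM in mature libraries. At 2dpr it had 228, 153, 145 and 210.1 CPM in immature and 145, 112, 127 and 116 CPM in mature libraries. The 2 stages did not overlap in either age. Igfbp5 changed by -1.74 ± 0.16 in immature (adjusted p = 1.05e-10) and -2.10 ± 0.17 on the log2 scale in mature animals (adjusted p = 1.3e-12), to 0.299 and 0.234 of the level at 0dpr. Without the 2 libraries that stood apart these were -1.68 ± 0.17 (adjusted p = 7.9e-10) and -2.11 ± 0.18 (adjusted p = 1.97e-11). The mean of 8 of 8 osteoblast markers went from 4.2 to 6.12 log2 CPM at 0dpr to 3.62 to 5.29 at 2dpr in immature mice, with overlap, and from 4.74 to 5.45 to 1.16 to 3.90 in mature mice, without overlap, and their part in the fall was not tested.

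Igfbp5 then rose from 2dpr to 5dpr by 0.67 ± 0.16 (adjusted p = 0.00584) and 1.19 ± 0.17 (adjusted p = 6.25e-06, and 2.35e-05 without the 2 libraries that stood apart). At 14dpr it was 358 ± 18.4 CPM in immature and 371 ± 77.4 CPM in mature mice (SD, n = 4 each), still below BL by a log2 fold change of -0.65 ± 0.16 (adjusted p = 0.00156) and -0.68 ± 0.16 (adjusted p = 0.000955). The immature change lost its call with the muscle score as a covariate (-0.52, adjusted p = 0.264), where calls over all genes went from 6667 to 1813. At 2dpr, 3 of 4 immature libraries lay above all mature ones (log2 fold change 0.56 ± 0.16, adjusted p = 0.0951 by edgeR and 0.0473 by DESeq2).

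Igfbp6, a binding protein with a preference for IGF2, fell at the same step. In immature mice it went from 133, 127, 170 and 218 CPM at 0dpr to 97.4, 66.0, 50.6 and 54.7 CPM at 2dpr. In mature mice it went from 157, 113, 121 and 108 CPM to 43.9, 31.4, 17.1 and 53.3 CPM, with the lowest value in the library that stood apart. The stages did not overlap in either age. Igfbp6 changed by -1.27 ± 0.31 in immature (adjusted p = 0.00113) and -1.77 ± 0.32 in mature animals (adjusted p = 1.82e-05), and -1.35 ± 0.31 and -1.54 ± 0.32 without the 2 libraries that stood apart. The skeletal muscle score fell over this step from 11.38 to 12.38 log2 CPM to 9.06 to 9.63 in immature mice and from 11.61 to 12.56 to 8.65 to 9.58 in mature mice. With that score as a covariate the Igfbp6 fold changes were -0.40 (adjusted p = 0.799) and -0.75 (adjusted p = 0.615), whereas those of Igfbp5 were -1.58 (adjusted p = 0.0011) and -1.90 (adjusted p = 0.00116). The score did not overlap between these stages, and the covariate lowered the calls over all genes. They went from 9324 to 1572 in immature and from 10100 to 1500 in mature mice.

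From 2dpr to 5dpr Igfbp6 rose in mature mice by 1.39 ± 0.33 (adjusted p = 0.00383, but 0.0646 with the muscle score as a covariate and 0.0566 in a fit to the libraries compared alone). It was 1.16 ± 0.33 (adjusted p = 0.0158) without the 2 libraries that stood apart. Over all genes the covariate gave 1619 calls and the fit to the libraries compared alone 714, against 3084 in the main fit. The immature step was 0.31 ± 0.31 (adjusted p = 0.665), and the difference between the 2 steps was -1.07 ± 0.45 (unadjusted p = 0.0239, adjusted p = 0.576). At 14dpr it was 149 ± 26.5 CPM in immature and 154 ± 27.3 CPM in mature mice (SD, n = 4 each). Igfbp6 at 14dpr was not called against BL in either age (adjusted p = 0.491 and 0.0953). In mature BL, replicate 4 had 193 CPM and the other 3 libraries 58.9 to 69.8, and without replicate 4 the change to 14dpr was 1.24 with an adjusted p of 0.000893.

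**Figure D4:**
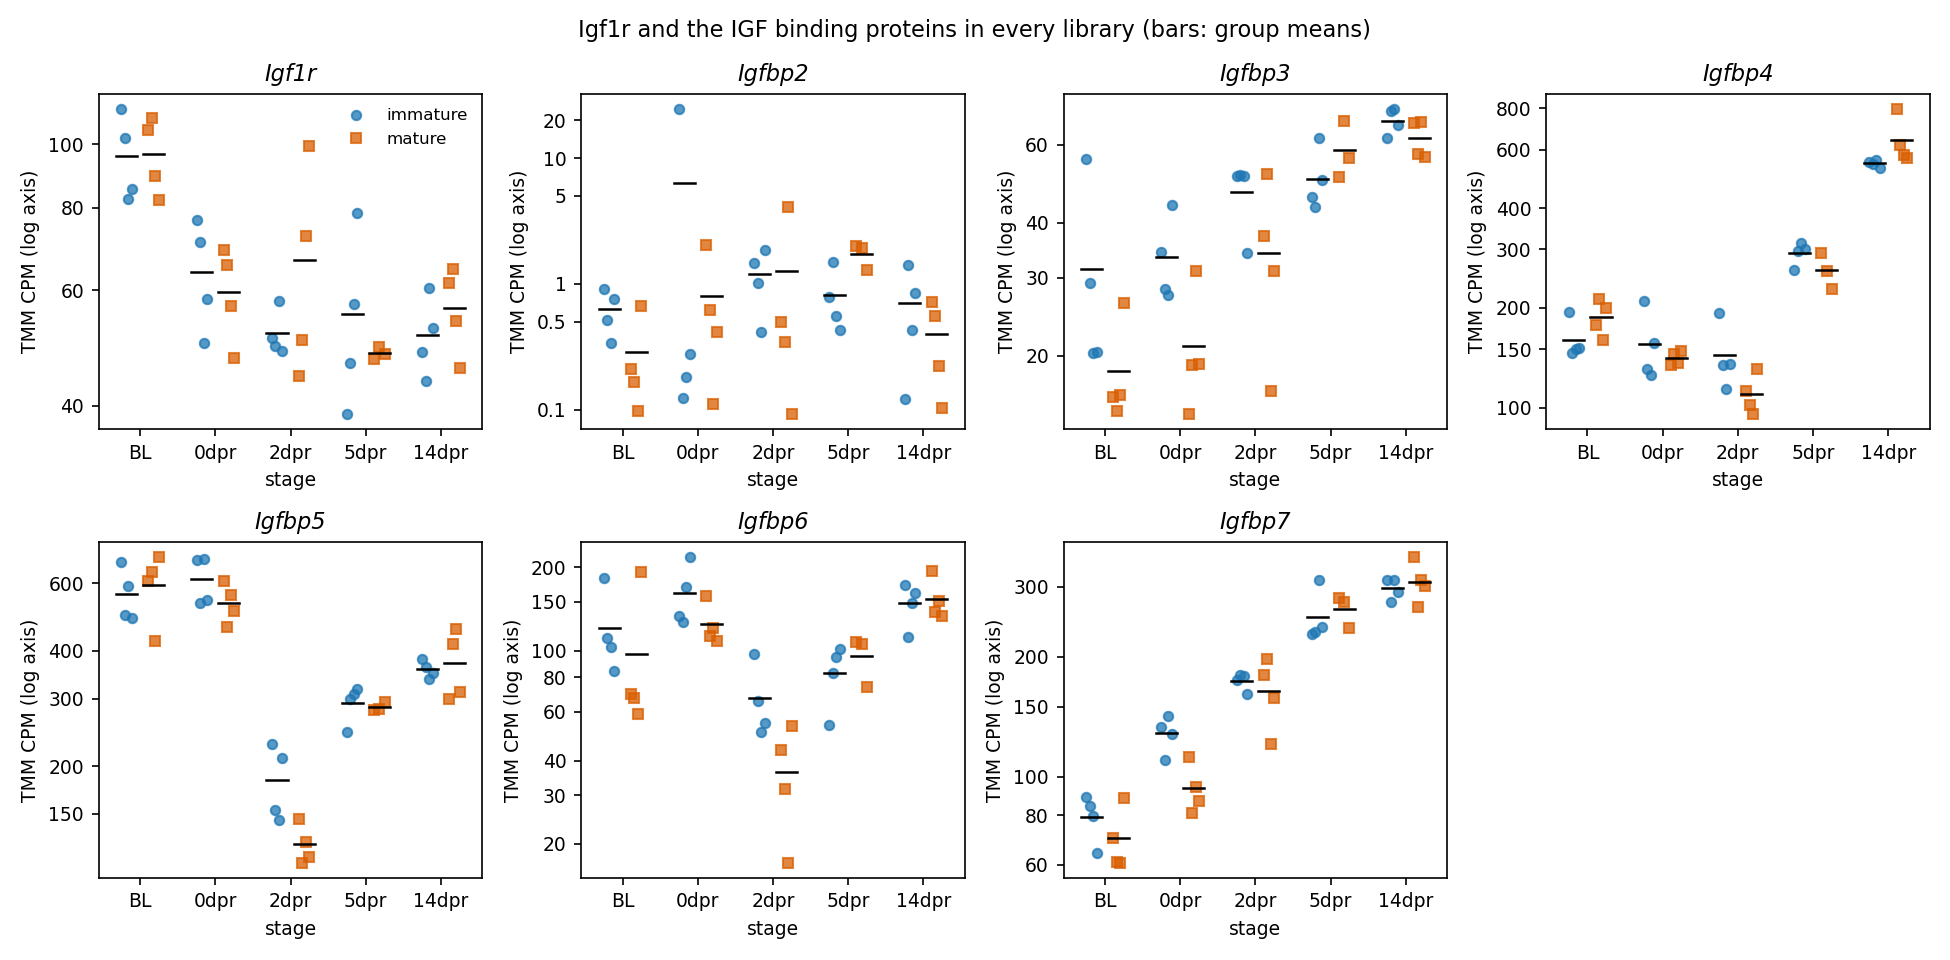
Igf1r and the 6 IGF binding protein genes in TMM CPM (vertical axis, log scale) in each library by stage (horizontal axis), with immature mice as circles, mature mice as squares and group means as bars. Igfbp5 and Igfbp6 drop at 2dpr, Igfbp7 climbs from BL to 14dpr, Igfbp4 climbs after 2dpr, and the single high Igfbp2 point at 0dpr (24.6 CPM) is the library with the most liver transcripts.

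Igfbp7, a secreted protein of vessels and stroma that binds IGFs weakly, rose in both ages at each step up to 5dpr. In immature mice its mean went from 79.2 ± 10.8 CPM at BL to 128 ± 13.4 at 0dpr, 174 ± 8.73 at 2dpr, 252 ± 40.1 at 5dpr and 298 ± 18.2 at 14dpr (SD, n = 4 each). In mature mice it went from 70.04 ± 13 CPM to 93.6 ± 13.6, 164 ± 33, 264 ± 24.9 (n = 3) and 309 ± 36.6 (SD, n = 4 where not stated). The libraries at 14dpr ran from 274 to 312 CPM in immature and 268 to 356 CPM in mature mice, all above the 60.8 to 89.0 CPM of the 8 libraries at BL. From BL to 14dpr it rose by a log2 fold change of 1.91 ± 0.14 (adjusted p = 3.29e-12) and 2.14 ± 0.15 (adjusted p = 1.84e-13), the smallest adjusted p of any member over this comparison in each age.

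Of the single steps, BL to 0dpr (0.70 ± 0.14 and 0.42 ± 0.14), 0dpr to 2dpr (0.44 ± 0.14 and 0.81 ± 0.14) and 2dpr to 5dpr (0.54 ± 0.14 and 0.69 ± 0.15) were called in both ages. Without the 2 libraries that stood apart, the immature steps that involve 0dpr were 0.68 ± 0.14 (adjusted p = 0.00295) and 0.46 ± 0.14 (adjusted p = 0.00772), and the mature steps that involve 2dpr were 0.93 ± 0.14 (adjusted p = 9.11e-07) and 0.57 ± 0.15 (adjusted p = 0.00739). The last step, 5dpr to 14dpr, was 0.24 ± 0.14 (adjusted p = 0.497) and 0.23 ± 0.15 (adjusted p = 0.448), with overlapping libraries. The mean of 6 of 6 endothelial markers went from 5.22 to 5.58 log2 CPM at BL to 6.22 to 6.54 at 14dpr in immature mice and from 5.34 to 5.49 to 6.18 to 6.36 in mature mice, without overlap. From 0dpr to 2dpr, where Igfbp7 rose, these markers fell from 6.02 to 6.45 to 5.59 to 5.77 in immature mice, without overlap. In mature mice they went from 5.88 to 6.22 to 5.39 to 6.02, with overlap. The part of these markers in the rise of Igfbp7 was not tested. The mature step from BL to 0dpr had an adjusted p of 0.0297 and was called in 2 of 8 fits that left out 1 library (adjusted p up to 0.115, lost without each of mature BL replicates 1 to 3 and mature 0dpr replicates 1, 3 and 4). In fits to the libraries compared alone, the immature step from BL to 0dpr had an adjusted p of 0.0727 and the mature step from 2dpr to 5dpr one of 0.0853. These 2 fits called 48 and 714 of all genes, against 2257 and 3084 in the main fit. The immature step from 2dpr to 5dpr was lost without immature 5dpr replicate 4 (adjusted p = 0.0909), which at 312 CPM lay above the 228 to 238 of the other 3. The step from 0dpr to 2dpr was not called in either age with the muscle score as a covariate (adjusted p = 0.336 and 0.101), at similar fold changes of 0.51 and 0.89. Calls over all genes went from 9324 to 1572 in immature and from 10100 to 1500 in mature mice with this covariate.

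Igfbp4, a binding protein made by bone cells that is cut by pappalysin, rose late. It had 114 to 193 CPM in immature and 95.6 to 131 CPM in mature libraries at 2dpr. At 5dpr it had 259 to 314 CPM in immature and 229 to 293 CPM in mature libraries. At 14dpr it had 552, 543, 560 and 528 CPM in immature and 797, 620, 578 and 566 CPM in mature libraries. These 3 stages did not overlap within an age, and at 14dpr every mature library lay above every immature one (log2 fold change of immature over mature -0.23 ± 0.15, adjusted p = 1).

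The step from 2dpr to 5dpr was 1.02 ± 0.15 in immature (adjusted p = 2.31e-05) and 1.24 ± 0.16 in mature animals (adjusted p = 1.15e-06, and 1.18 ± 0.16 without the 2 libraries that stood apart). The step from 5dpr to 14dpr was 0.90 ± 0.15 (adjusted p = 0.00029) and 1.30 ± 0.17 (adjusted p = 4.65e-06). Against BL, Igfbp4 at 14dpr was 1.77 ± 0.15 higher on the log2 scale in each age. Earlier, it fell in mature mice from BL to 0dpr by 0.41 ± 0.15 on the log2 scale (adjusted p = 0.0466), a call held in 3 of 8 fits that left out 1 library (adjusted p up to 0.155, lost without mature BL replicates 1, 2 or 4 or mature 0dpr replicates 1 or 3). With the muscle score as a covariate this step was -0.22 (adjusted p = 0.67), and without the 2 libraries that stood apart and mature 0dpr replicates 1 and 2 it was -0.36 (adjusted p = 0.121). The covariate took the calls over all genes at this step from 4775 to 132.

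Igfbp3, the main IGFBP of the circulation, was lower in level and rose by 14dpr. At BL it had 55.8, 29.2, 20.3 and 20.4 CPM in immature and 16.1, 15, 16.3 and 26.4 CPM in mature libraries. At 14dpr it had 62.1, 71.5, 72.5 and 66.5 CPM in immature and 67.1, 57.1, 67.6 and 56.5 CPM in mature libraries. The 2 stages did not overlap in either age. The log2 fold change was 1.12 ± 0.27 in immature (adjusted p = 0.00133) and 1.75 ± 0.28 in mature animals (adjusted p = 4.65e-06).

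The single step of Igfbp3 that was called was 0dpr to 2dpr in mature mice (0.70 ± 0.27, adjusted p = 0.0341). It was called in 3 of 8 fits that left out 1 library (adjusted p up to 0.211, lost without mature 0dpr replicates 1, 2 or 4 or mature 2dpr replicates 1 or 2), and was 0.92 ± 0.26 (adjusted p = 0.00407) without the 2 libraries that stood apart. DESeq2 gave it an adjusted p of 0.0555, and leaving out mature 0dpr replicates 1 and 2 as well gave 0.62 ± 0.31 (adjusted p = 0.114). The mean was higher in immature mice at BL (31.4 ± 16.8 against 18.4 ± 5.31 CPM), 0dpr (33.5 ± 7.61 against 21 ± 6.99 CPM) and 2dpr (46.9 ± 8.48 against 34.1 ± 14.5 CPM; SD, n = 4 each). The libraries overlapped at each of these stages and the adjusted p was 0.226, 0.329 and 0.478.

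Igfbp2, a binding protein made by liver and other tissues, was close to the limit of detection. Outside 2 libraries it had 0.0925 to 2.04 CPM, from 1 to 38 reads per library, so that single reads set many of its values. The exceptions were immature 0dpr replicate 1 with 24.6 CPM (165 reads) and mature 2dpr replicate 3 with 4.11 CPM (37 reads), the 2 libraries that stood apart. The call from BL to 0dpr in immature mice (log2 fold change 3.27 ± 1.09, adjusted p = 0.0488) rested on the first of these, and without both it was -1.67 ± 0.88 (adjusted p = 0.205), of the other sign. The call was also lost without any one of the 4 immature BL libraries. The step from 0dpr to 2dpr in immature mice was -2.39 ± 1.03 (adjusted p = 0.0584), and 2.54 ± 0.85 (adjusted p = 0.0135) without both. In mature mice the step from 2dpr to 5dpr was 0.55 ± 1.08 (adjusted p = 0.79), and 2.53 without both, with an adjusted p of 0.0191.

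**Figure D5:**
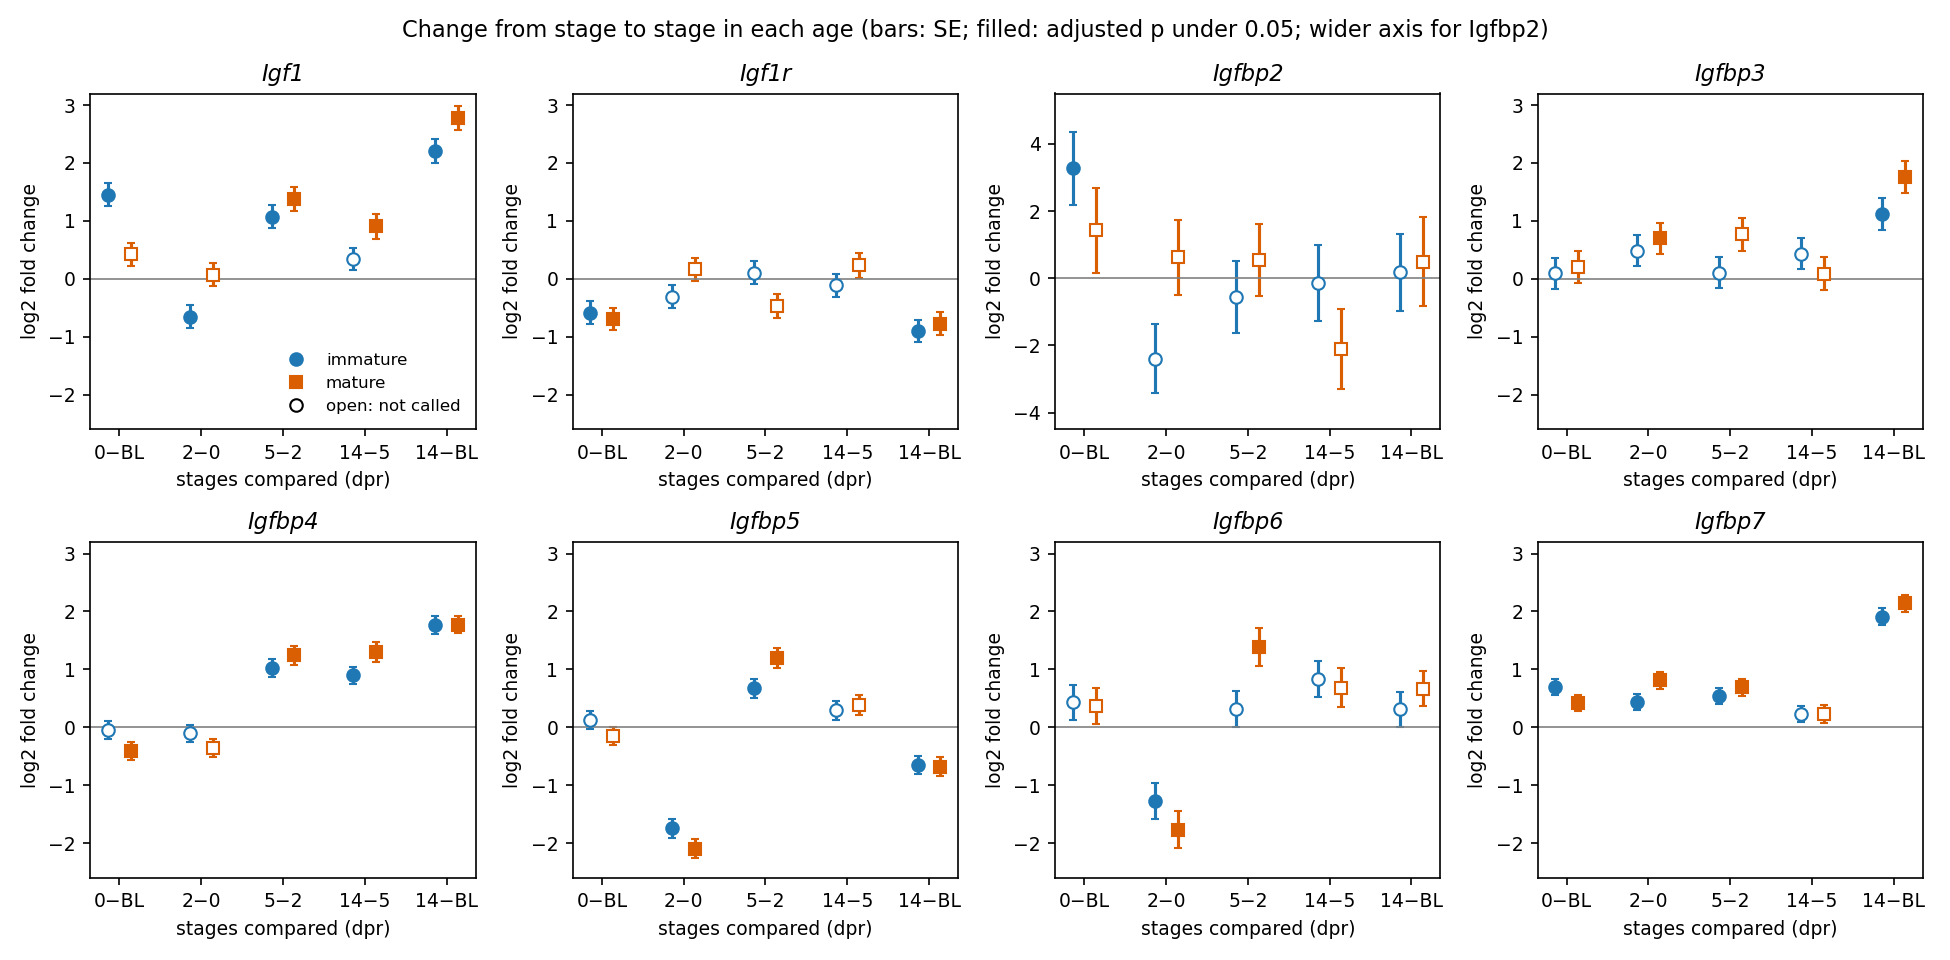
Log2 fold change between stages (vertical axis) for each member in 5 comparisons of stages (horizontal axis), in immature (circles) and mature mice (squares), with SE bars and filled symbols for an adjusted p under 0.05. Both ages fell in Igfbp5 and Igfbp6 from 0dpr to 2dpr and rose in Igf1, Igfbp3, Igfbp4 and Igfbp7 from BL to 14dpr, and the one filled Igfbp2 symbol rests on the library with the most liver transcripts.

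Counted over members, 4 rose and 2 fell from BL to 14dpr in each age, the same 6 genes in the same direction. In immature mice 31.4% of all genes were called in this comparison (16.4% higher and 15.1% lower), and in mature mice 33.5% (17.1% and 16.4%). Over the 8 members the median log2 fold change was 0.71 in immature and 1.21 in mature mice, against -0.04 and -0.03 over all genes. From 2dpr to 5dpr, 4 members rose in immature and 5 in mature mice and 0 fell. Of all genes, 8.05% were called there in immature mice (4.37% higher and 3.68% lower) and 14.5% in mature mice (8.16% and 6.38%). From 5dpr to 14dpr, 1 and 2 members rose and 0 fell, against 3.18% of genes called in immature mice (1.73% higher and 1.45% lower) and 4.18% in mature mice (1.95% and 2.23%).

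At the first step, from BL to 0dpr, immature mice had 3 members higher and 1 lower, with 10.6% of genes called (5.98% higher and 4.66% lower). Mature mice had 1 member higher and 2 lower, with 22.5% of genes called (11.9% and 10.6%). From 0dpr to 2dpr, immature mice had 1 member higher and 3 lower, with 44% of genes called (21.8% and 22.2%). Mature mice had 2 members higher and 2 lower, with 47.6% of genes called (22.7% and 24.9%), so that the members' share at this step was close to that of all genes. Consecutive steps share the libraries of the stage between them.

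For the difference between ages in these changes, edgeR called 0 of 8 members in each of the 5 comparisons, in the order BL to 0dpr, 0dpr to 2dpr, 2dpr to 5dpr, 5dpr to 14dpr and BL to 14dpr, against 0.0141%, 0.0613%, 0%, 0% and 0.0472% of all genes. DESeq2 called 0 members and 0.132%, 0.523%, 0.17%, 0.0236% and 0.278% of genes. An unadjusted p under 0.05 was given to 1, 1, 2, 0 and 1 members and to 8.07%, 11.2%, 8.09%, 4.25% and 7.98% of genes.

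Over the 10 group means of log2 CPM, Igf1 ran closest to Igfbp3 (r = 0.902) and Igfbp7 (r = 0.898) among members, and Igf1r ran opposite to Igfbp7 (r = -0.841). Igfbp5 and Igfbp6 had an r of 0.797. Among all 10628 genes with a mean of at least 10 CPM, the 3 whose means ran most like Igf1 were Pkn3 (r = 0.984), Ephb4 (0.979) and Spon2 (0.975). For Igfbp7 they included Col18a1 (0.996) and Nid2 (0.993), and for Igfbp3 they were Col3a1 (0.981), Tcf12 (0.980) and Mfap5 (0.977). For Igfbp4 they were Fzd1 (0.968), Mdk (0.967) and Klhl42 (0.964). For Igfbp5 they were Kalrn (0.983), Bbs9 (0.980) and Enpp5 (0.975), and for Igfbp6 Clec3b (0.982), Tnxb (0.981) and Ehbp1 (0.979). For Igf1r they were Atp11b (0.977), Mctp2 (0.965) and Hipk1 (0.960). Those of Igfbp2 (Sco1, Jagn1 and Ddr1, 0.890 to 0.928) follow a mean set by 1 library. These are descriptions over 10 points that share libraries and stages.

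The markers of the tissue moved over the same stages. The 8 fibroblast and stroma markers went from 9.24 to 9.51 log2 CPM at BL to 10.4 to 10.8 at 14dpr in immature mice and from 8.12 to 8.81 to 10.6 to 10.9 in mature mice. The 10 macrophage markers went from 5.01 to 5.79 at 0dpr to 8.21 to 8.53 at 2dpr in immature mice and from 5.32 to 5.71 to 8.19 to 8.65 in mature mice. The skeletal muscle markers at 14dpr stood at 8.86 to 9.64 in immature and 9.28 to 10.04 in mature mice. No marker of these 3 lists was at 0 in all libraries of a group. The mean of 6 erythroid markers at BL, 0dpr and 2dpr was 9.28, 7.93 and 6.525 log2 CPM in immature mice. In mature mice it was 9.68, 9.07 and 5.79. The 8 neutrophil markers went from a mean of 8.96 at BL to 7.23 at 0dpr in immature mice, with overlap. In mature mice they went from 9.61 to 7.77. The 6 B cell markers went from 5.19 at BL to 2.38 at 2dpr in immature and from 4.72 to 1.38 in mature mice. Of all marker lists, only the muscle score was used as a covariate, and the part of the others was not tested.

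Of 36 further genes of the IGF pathway, 33 were tested. Insrr, Igfbpl1 and Adam28 were below the count filter with 39, 20 and 29 reads over all libraries. Between ages, 4 of 33 were higher in immature mice at BL, 4 at 0dpr and 5 at 2dpr and 0 were lower, against 0.585%, 0.726% and 0.627% of all genes called. DESeq2 called 5 at each of these stages, against 1.58%, 1.65% and 2.02% of all genes. An unadjusted p under 0.05 was given to 8, 10 and 7, against 11.7%, 10.7% and 13.3%. The edgeR counts were 5, 1 and 3 without the 2 libraries that stood apart, against 1.68%, 0.552% and 0.778%. With mature 0dpr replicates 1 and 2 left out too, 0 were called at 0dpr, against 0.132%. At 5dpr and 14dpr edgeR called 0, against 0% and 0.00943% of all genes. DESeq2 called 1 and 0 there, against 0.156% and 0.151%, and 3 and 4 had an unadjusted p under 0.05, against 5.1% and 4.57%.

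Between 0dpr and 2dpr, immature mice had 9 of 33 higher and 18 lower, against 21.8% and 22.2% of all genes, and mature mice had 10 higher and 15 lower, against 22.7% and 24.9%. These counts were 9 and 16 and 9 and 17 without the 2 libraries that stood apart, where 46.8% and 50.3% of all genes were called. From BL to 14dpr, 11 were higher and 7 lower in each age, against 16.4% and 15.1% of genes in immature and 17.1% and 16.4% in mature mice.

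Igf2, the fetal IGF ligand, which is imprinted, stood at 43.4 ± 8.51 CPM in immature and 16.1 ± 3.76 CPM in mature ribs at BL (SD, n = 4 each; log2 fold change 1.43 ± 0.29, adjusted p = 0.0117). It peaked at 5dpr, rising from 2dpr by 2.98 ± 0.30 in immature (adjusted p = 2.22e-08) and 4.55 ± 0.33 in mature animals (adjusted p = 6.05e-12, and 4.31 ± 0.30 without the 2 libraries that stood apart), where Igf1 was still to reach its highest mean in both ages. Its counts are uncertain because 3596 exonic bases are shared with the same-strand gene Gm49394. Igf2bp2, which binds Igf2 mRNA, was higher in immature mice at 0dpr by 1.36 ± 0.25 (adjusted p = 0.00279) and rose from 0dpr to 2dpr by 1.84 ± 0.24 and 3.15 ± 0.26 (adjusted p = 6.57e-08 and 2.25e-12). Without the 2 libraries that stood apart the age difference was 1.08 ± 0.23 (adjusted p = 0.0181) and the rises were 2.12 ± 0.21 and 3.31 ± 0.21, and with mature 0dpr replicates 1 and 2 left out too the age difference was not called (0.96 ± 0.28, adjusted p = 0.23).

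Htra1, a secreted protease that cuts IGFBPs, was higher in immature mice at BL (0.74 ± 0.14, adjusted p = 0.00478) and 0dpr (0.59 ± 0.14, adjusted p = 0.0277). The call at 0dpr was lost without the 2 libraries that stood apart (0.52 ± 0.14, adjusted p = 0.0918). It rose from BL to 14dpr by 1.19 ± 0.14 and 2.00 ± 0.14 in immature and mature mice (adjusted p = 1.69e-08 and 3.17e-13). Pappa, which encodes the protease of IGFBP4, was called in none of the 15 comparisons of ages or stages, with group means of 11.8 to 31.5 CPM, but its step from 2dpr to 5dpr in mature mice was called without the 2 libraries that stood apart (1.24 ± 0.37, adjusted p = 0.0193).

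Ghr, the growth hormone receptor upstream of Igf1, rose from BL to 0dpr by 1.16 ± 0.18 and 0.99 ± 0.18 (adjusted p = 0.000148 and 0.000174). It fell from 0dpr to 2dpr by 1.93 ± 0.18 and 1.35 ± 0.18 on the log2 scale (adjusted p = 1.18e-10 and 9.55e-08). These 4 changes were 1.11, 0.99, -1.88 and -1.54 without the 2 libraries that stood apart, and all were called. Irs1, the adaptor that docks to the activated receptor, went the same way, by 1.11 ± 0.15 and 0.92 ± 0.15 and then by -2.03 ± 0.16 and -2.40 ± 0.16 (adjusted p = 3.69e-05, 8.21e-05, 1.43e-12 and 2.43e-14). They were 1.09, 0.92, -2.02 and -2.46 without these libraries, and all were called. The mean of 7 adipocyte markers at BL, 0dpr and 2dpr was 6.63, 7.69 and 6.19 log2 CPM in immature mice. In mature mice it was 6.99, 7.72 and 5.815. The mean skeletal muscle score was 11.38, 11.96 and 9.4 in immature and 10.8, 12.06 and 9.01 in mature mice. The part of adipocytes in the changes of Ghr and Irs1 was not tested, and no fit with the muscle score is given for either gene. At 2dpr Irs1 was higher in immature mice by 0.74 ± 0.15 (adjusted p = 0.0145, and 0.80 ± 0.17 with 0.0159 without the 2 libraries that stood apart), and 2822 of its exonic bases overlap the antisense gene Gm9747.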

How the data were processed

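RNA from ground frozen rib tissue was made into Illumina TruSeq stranded libraries and sequenced as paired-end reads. The authors mapped reads to GRCm38 and counted reads per gene with STAR 2.5.2a. The annotation release and the strand setting are not given in the sources used here. The deposited counts are raw whole numbers for 48733 genes, and a second deposited count table keeps 21204 of them. Another deposited table holds expression signal that the authors scaled as TMM CPM (columns need not sum to a fixed total), and it could be recomputed from that count table within a relative difference of 5e-15. One of the 21204 rows names no mouse gene and was kept as deposited, and such rows hold 0.00111% of all counts. Of 40 labelled samples, 39 were analysed, without replicate 2 of mature 5dpr.

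Counts were fitted in R 4.3.3 with edgeR 4.0.16 (TMM, quasi-likelihood test, 1 coefficient per group over all 39 libraries), with Benjamini-Hochberg adjustment over 21204 genes for each comparison. log2 CPM used a prior count of 2. Comparisons were immature against mature at each stage, successive stages and 14dpr against BL within an age, and the difference between ages in each change, 20 in all. Alternatives were DESeq2 1.42.0, other size factors and filters, only the libraries compared, a replicate block, a muscle score covariate, leaving out each library, and leaving out the libraries that stood apart or carried liver transcripts. On simulated counts for the comparison of ages at 2dpr over 21204 genes, 56% of genes changed 2-fold and 81% of genes changed 4-fold were called, with 9 false among 146 calls. Changes were placed only in genes with a mean over 1 CPM, and a gene otherwise had the same mean in all groups. The simulation held no changes between stages and no libraries that stood apart.

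Same-numbered samples of the 2 ages at 0dpr deviated together from their group means (r of 0.178 to 0.296 in 4 pairs), by the data and not by any label. The main fit held no term for this pairing. The replicate block held one, but it ties samples of the same number over all groups. In the other comparisons of ages at least 1 pair had an r of 0.1 or less. The members and gene lists were chosen with earlier results of these data known. Named were all 8 members, the 3 pathway genes with the smallest p between ages and the 3 with the smallest from 0dpr to 2dpr, Igf2, Pappa, Ghr and Irs1, and for each member the 3 genes of most similar group means, of which 1 is not reported here.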

Additional observations from a re-analysis of the deposited data

Results flagged for a closer look

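In groups of 4, a member was taken up here when 1 library lay far from the other 3 by Dixon's ratio at its 95% level, which chance passes in about 1 of 20 groups. Of 72 groups of a member tested, 7 passed. Igfbp2 had 24.6 CPM in immature 0dpr replicate 1, the library with the most liver transcripts, and 4.11 CPM in mature 2dpr replicate 3. Igfbp3 had 34.1 CPM in immature 2dpr replicate 4, below the other 3, and 26.4 CPM in mature BL replicate 4. Igfbp6 had 193 CPM in that same mature BL library. Igfbp4 had 194 CPM in immature BL replicate 2, and Igfbp7 had 312 CPM in immature 5dpr replicate 4. Igf1 had no such library at any stage, immature 0dpr included.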

How the results depend on the processing

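Of the 40 tests of members between ages, 1 was called, and this was 3 with DESeq2, 0 with only the libraries compared, 2 when the muscle score was a covariate, 2 without the 2 libraries that stood apart, 2 with mature 0dpr replicates 1 and 2 left out too, and 1 to 2 when each library was left out in turn. The counts between stages, 19 of 40 in immature and 20 of 40 in mature mice, ran from 13 to 19 and from 14 to 21 over the 7 settings (lowest with the muscle score), and were 18 and 22 without the 2 libraries that stood apart and 18 and 20 with the 2 mature 0dpr libraries left out too. Calls over all genes moved as well. With the muscle score they went from 9324 to 1572 in immature and from 10100 to 1500 in mature mice for 0dpr to 2dpr. For BL to 0dpr they went from 2257 to 811 and from 4775 to 132, but between ages at 2dpr from 133 up to 290. Between ages at 0dpr, 154 genes were called in the main fit, 349 by DESeq2 and 0 with only the libraries compared. The difference between ages in a change gave 0 calls of 40 in every setting run. Leaving out 1 library, the Igfbp2 change in immature mice ran from -1.70 to 3.72 for BL to 0dpr and from -2.84 to 2.56 for 0dpr to 2dpr, turned by immature 0dpr replicate 1 alone. Without the 2 libraries that stood apart these were -1.67 and 2.54, and with the 2 mature 0dpr libraries left out too -1.63 and 2.51. With the replicate block, the counts were 1, 17, 21 and 0, the age difference of Igf1 at 0dpr was 1.40 (adjusted p = 0.000243), and the samples in other comparisons share only a number. Depth limits Igfbp2, at 1 to 38 reads in 37 libraries.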
